A study of Homo sapiens with 12 samples.

Results

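ROCK1P1, a pseudogene of the kinase gene ROCK1, was followed across 12 RNA-seq libraries together with its parent and with 3 non-coding genes known only by clone names, AC107959.3, AC139493.2 and AC093001.1. These 5 genes were found by symbol among the 57500 genes of the deposited count table, and all 5 were among the 27029 genes with enough counts to be tested. ROCK1P1 and the 3 non-coding genes were selected on their fold changes after depletion of PACT, which earlier results of these same libraries showed to be rises in both cell lines or in 1 of them. Their changes are therefore given as a description, with standard errors and without p-values. ROCK1 came in as the parent and is tested.

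The libraries were made from HCC1806 and MDA-MB-468, established lines of triple-negative breast cancer, after CRISPR-Cas9 with the guide sgPACT-2 against PRKRA, the gene of PACT, or with a control guide. The control guide was sgC1 in HCC1806 and sgNTA in MDA-MB-468, so line and control guide cannot be told apart. Each of the 4 groups had 3 libraries of total RNA, treated with DNase and depleted of rRNA. The labels do not say that they were separate cultures, so the p-values measure the spread between these libraries, which may be technical. Library totals ran from 18640633 to 24704877 counts for HCC1806 and from 34581754 to 44790741 for MDA-MB-468. Levels are given as CPM, read counts relative to library size after TMM scaling. PRKRA itself was 77.8 ± 5.30 CPM (SD, n = 3) in HCC1806 controls and 36.9 ± 0.774 in depleted libraries, a log2 fold change of -1.07 (SE 0.10, edgeR adjusted p = 1.7e-05). In MDA-MB-468 it was 44.7 ± 3.12 and 38.8 ± 3.09 CPM, a log2 fold change of -0.20 with an adjusted p of 0.958 by edgeR, and the groups overlapped. The counts hold no protein level, so the word depleted names the libraries with the guide sgPACT-2 in both lines. The epithelial markers EPCAM, KRT8, KRT18, KRT19 and CDH1 were at 131 CPM or more (not TMM-scaled for these markers) in every library, and the hormone receptor gene PGR was at 0.364 CPM or less. ESR1, the estrogen receptor gene, was at 19.9 to 26.4 CPM in HCC1806 and lower, 5.5 to 6.86 CPM, in MDA-MB-468. The basal markers did not all differ in the same direction between HCC1806 and MDA-MB-468. TP63 was at 221 to 342 and 0.382 to 1.26 CPM, and KRT14 at 40.3 to 75.8 and 26.5 to 51.4. KRT5 was at 352 to 995 and 871 to 1179 CPM. KRT17 was at 17.1 to 38.1 and 511 to 721, and EGFR at 1076 to 1195 and 7105 to 9440. Of 6 markers of other cells, CD3E and LYZ were at or near 0 and PTPRC, CD68 and PECAM1 at 4.08 CPM or less, while COL1A1, a collagen gene, was at 28.3 to 57.8 CPM in HCC1806. The sum of the 6 was 32.7 to 47.6 CPM in HCC1806 controls and 45.3 to 60.4 in depleted libraries, against 18.4 to 21.1 and 17.3 to 19.7 in MDA-MB-468. Their part in the results was not tested.

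ROCK1 is a serine/threonine kinase that is switched on by the GTPase RHOA and acts on the actin cytoskeleton: it phosphorylates myosin light chain, the myosin phosphatase subunit PPP1R12A and the LIM kinases, and so raises contraction and stabilises actin filaments. A pseudogene is a gene copy that no longer encodes the full protein; an unprocessed one arose by duplication of genomic DNA and keeps introns, and some are still transcribed. Antisense genes are transcribed from the strand opposite to another gene. PACT binds double-stranded RNA and acts on PKR, a kinase that responds to double-stranded RNA.

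ROCK1P1 (ENSG00000263006) lies near the end of the short arm of chromosome 18, at 109065 to 122219 on the plus strand in GRCh38, and GENCODE 29 types it as a transcribed unprocessed pseudogene. ROCK1 (ENSG00000067900), a protein-coding gene, lies on the other arm of the same chromosome, at 20946906 to 21111851 on the minus strand. The ROCK1P1 transcript analysed, ROCK1P1-203, has 2457 bases in 5 exons, and the ROCK1 transcript used has 9484 bases in 33 exons. Exons 2 to 5 of ROCK1P1-203 aligned to bases 4454 to 6523 of that transcript over 2070 columns, with 19 mismatches and 2 gap columns, an identity of 99%. The aligned stretch took 84.2% of the pseudogene transcript and 21.8% of the ROCK1 transcript. It covered only the last 553 bases of the ROCK1 coding sequence, 13.6% of that sequence, and 1517 bases of the 3′ untranslated region. Exon 1 of ROCK1P1-203, 389 bases, had no counterpart in the alignment.

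Within the aligned stretch the pair can be told apart only where bases differ, and these were few. In the coding stretch there were 4 differences, C4590G, G4726A, T4731C and C4929T, with the ROCK1 base first and positions counted from the first base of the ROCK1 transcript. The first 3 fall in exon 3 of ROCK1P1, at chr18:117043-117304 on the plus strand. This exon is printed with the matching stretch of ROCK1, bases 4533 to 4794 of its transcript, because it shows how little sequence a read can be assigned by. Capitals mark the 3 differing bases.
ROCK1P1 exon 3: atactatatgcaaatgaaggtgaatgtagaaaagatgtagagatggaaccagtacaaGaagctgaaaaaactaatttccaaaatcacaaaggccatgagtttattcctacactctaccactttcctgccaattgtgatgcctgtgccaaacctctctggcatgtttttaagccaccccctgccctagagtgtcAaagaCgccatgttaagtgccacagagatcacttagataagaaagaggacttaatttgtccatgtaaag
ROCK1 coding stretch: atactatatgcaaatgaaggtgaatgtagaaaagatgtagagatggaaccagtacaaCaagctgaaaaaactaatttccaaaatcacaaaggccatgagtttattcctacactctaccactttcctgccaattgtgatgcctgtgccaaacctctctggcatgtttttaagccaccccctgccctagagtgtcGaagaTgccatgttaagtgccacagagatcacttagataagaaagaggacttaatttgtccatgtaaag

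Of all stretches of 50 bases in ROCK1P1-203, 50.7% also occurred without a mismatch in another gene's transcript, in each case ROCK1. At 100 bases the share was 27.8%, and at 150 bases 13.5%. Such stretches cannot be assigned to 1 of the pair by sequence, and how the authors' counting treated them is not given in the sources used here, so the counts of ROCK1P1 are uncertain to that extent. The junction of exon 1 and exon 2 is the place where sequence of the pseudogene alone meets sequence shared with its parent. It is given here for bases 290 to 449 of ROCK1P1-203, with exon 2 in capitals.
ROCK1P1 exon 1 to exon 2: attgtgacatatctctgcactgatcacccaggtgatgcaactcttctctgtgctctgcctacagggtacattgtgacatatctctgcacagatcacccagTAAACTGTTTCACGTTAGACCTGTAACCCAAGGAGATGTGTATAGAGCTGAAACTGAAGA

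**Figure D1:**
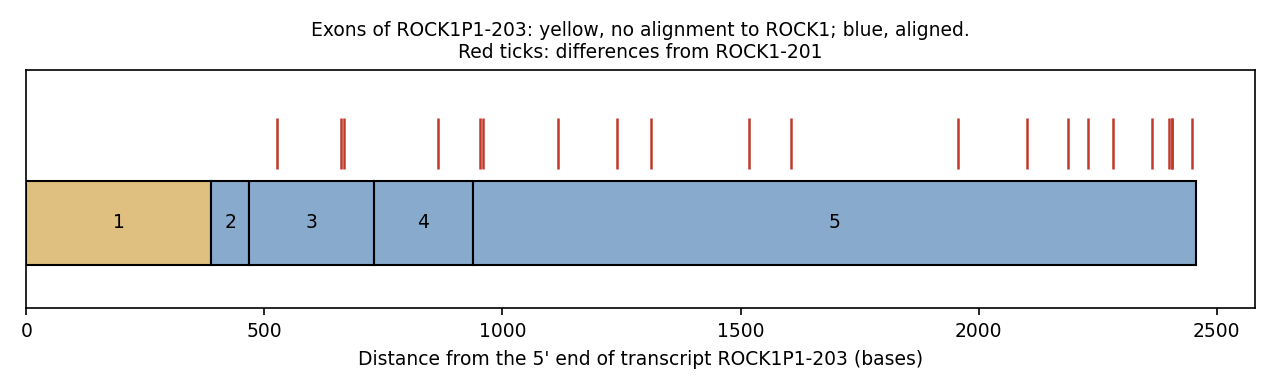
Exons of the transcript ROCK1P1-203 drawn to scale along its length in bases, numbered 1 to 5. Exon 1 (yellow) has no alignment to the ROCK1 transcript; exons 2 to 5 (blue) align, and the red ticks mark the differences, 0 in exon 2, 3 in exon 3, 1 in exon 4 and 17 in exon 5, gap columns included.

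ROCK1P1 was higher in every depleted library than in every control library of the same line, an order shown by 8.51% of the genes tested in HCC1806 and by 6.2% in MDA-MB-468. In HCC1806 the controls held 17, 31 and 20 counts and the depleted libraries 72, 64 and 144. These were 0.709, 1.39 and 0.847 CPM in controls and 3.53, 2.77 and 4.81 CPM after depletion, means of 0.981 ± 0.359 and 3.70 ± 1.03 (SD, n = 3). The fitted log2 fold change was 1.93 (SE 0.25), and the ratio of the means was 3.77.

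MDA-MB-468 started from a higher level and ended far above HCC1806. Its controls held 156, 164 and 191 counts of ROCK1P1, or 4.35, 4.99 and 4.77 CPM, a mean of 4.70 ± 0.326 (SD, n = 3). Its depleted libraries held 1037, 1030 and 1129 counts, or 29.6, 31.0 and 34.7 CPM, a mean of 31.8 ± 2.67. The log2 fold change was 2.76 (SE 0.20), a ratio of means of 6.76. The control mean was 4.79 times that of HCC1806, so that control MDA-MB-468 libraries (4.35 to 4.99 CPM) lay within or just above the depleted HCC1806 libraries (2.77 to 4.81 CPM). The change was larger in MDA-MB-468 than in HCC1806 by 0.82 on the log2 scale (SE 0.32).

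Depleted libraries all above controls in both lines were seen for 1.09% of the genes tested, and an adjusted p under 0.05 with a rise in both lines for 0.0629%. ROCK1P1 and AC107959.3 had that order of libraries in both lines; since earlier results of these contrasts chose them, nothing is read from that count.

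ROCK1 was not called in either line. In HCC1806 controls it held 1530, 1263 and 1369 counts and in depleted libraries 1304, 1143 and 1838, or 59.4 ± 3.84 and 58.3 ± 7.66 CPM (SD, n = 3), and the groups overlapped. The log2 fold change was -0.03 (SE 0.11, edgeR adjusted p = 0.954). Its sign turned to 0.10 with library sizes alone and to 0.00 when genes averaging under 50 counts were dropped, both with edgeR adjusted p-values of 0.716 or above. In MDA-MB-468 the controls held 3020, 2861 and 3598 counts and the depleted libraries 3365, 3122 and 3218, or 87.0 ± 2.83 and 96.3 ± 2.57 CPM. All 3 depleted libraries were above the controls, an order shared by 6.2% of genes, and the log2 fold change of 0.15 (SE 0.10) did not pass the test (edgeR adjusted p = 1). The difference between the effects in the 2 lines was 0.18 (SE 0.15, edgeR adjusted p = 0.812). Between the controls of the 2 lines ROCK1 was higher in MDA-MB-468 by 0.55 on the log2 scale (SE 0.10, edgeR adjusted p = 1.5e-04), a ratio of 1.46. This fell to 0.30 with library sizes alone and to 0.24 without genes averaging under 50 counts (edgeR adjusted p = 0.0295 for the latter). Of all genes tested, 34.2% were higher in MDA-MB-468 controls by the same rule.

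**Figure D2:**
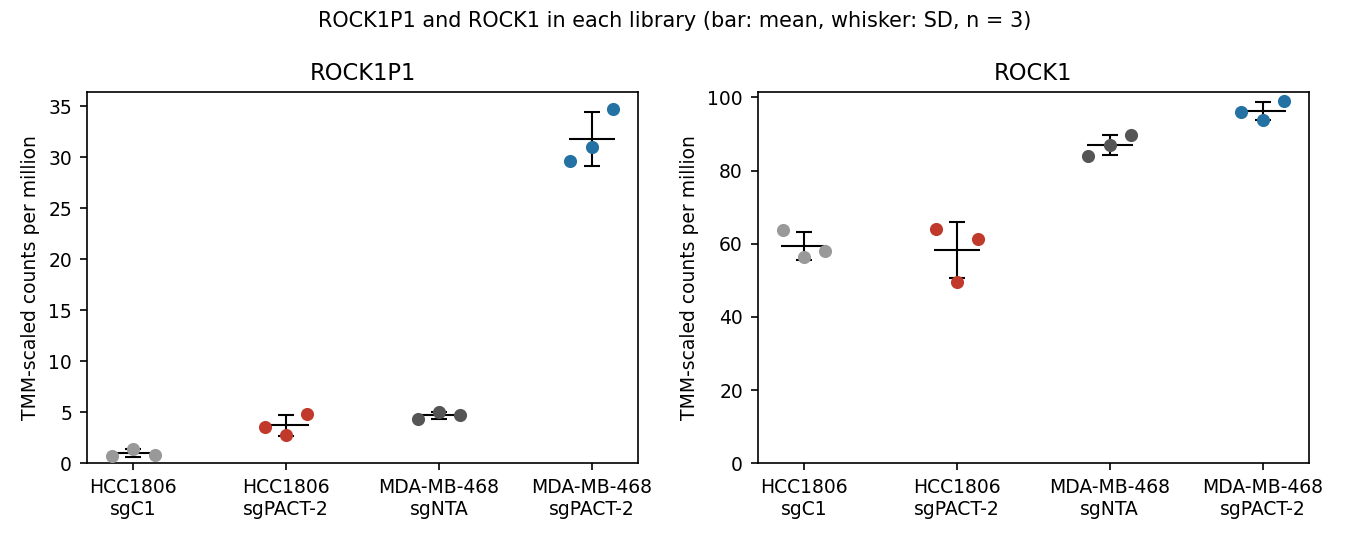
ROCK1P1 (left) and ROCK1 (right) in TMM-scaled CPM, with a point for each library, with the mean and SD of each group (n = 3). ROCK1P1 in depleted MDA-MB-468 libraries lies between 29.6 and 34.7, against 4.35 to 4.99 in its controls, while ROCK1 stays between 49.5 and 63.9 in HCC1806 and between 84.1 and 99 in MDA-MB-468.

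The ratio of the pair within each library does not depend on library size. Raw counts of ROCK1P1 were 1.11%, 2.45% and 1.46% of those of ROCK1 in HCC1806 controls and 5.52%, 5.60% and 7.83% after depletion. In MDA-MB-468 they were 5.17%, 5.73% and 5.31% in controls and 30.8%, 33.0% and 35.1% after depletion. The log2 ratio rose by 1.98 in HCC1806 (SD of the difference 0.65) and by 2.61 in MDA-MB-468 (0.12), so the spread of the ratio was wider in HCC1806. The groups did not overlap in either line.

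ROCK1 has 11113 annotated exon bases and ROCK1P1 has 2645, so levels were also compared per kilobase of exon. On that scale ROCK1P1 was 7.04% ± 2.93 of ROCK1 in HCC1806 controls and 26.5% ± 5.52 after depletion (SD, n = 3). In MDA-MB-468 it was 22.7% ± 1.24 in controls and 138% ± 8.96 after depletion, 129% to 147% in single libraries. In CPM per kilobase, ROCK1P1 was 0.371 and 1.40 in control and depleted HCC1806 and 1.78 and 12.0 in control and depleted MDA-MB-468. ROCK1 was 5.35, 5.24, 7.83 and 8.66 in the same order. The 3 depleted MDA-MB-468 libraries were thus the only ones of the 12 in which the pseudogene exceeded its parent per kilobase. Exon lengths were taken in full. Of the 50-base stretches, 50.7% of those of ROCK1P1-203 and 13.8% of those of the ROCK1 transcript also occur in other genes' transcripts. The point of equal levels is uncertain to that extent.

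**Figure D3:**
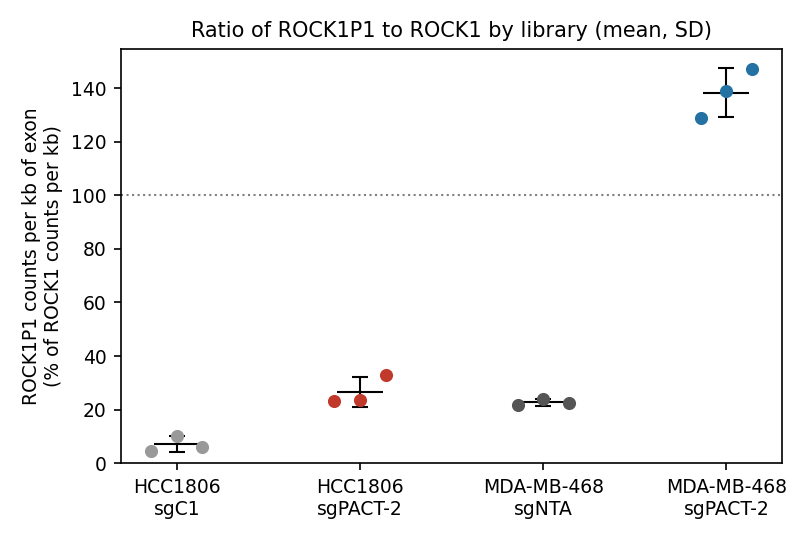
Counts of ROCK1P1 per kilobase of exon as a percentage of those of ROCK1, 1 point per library, with the mean and SD of each group (n = 3); the dotted line marks equal levels. Only the depleted MDA-MB-468 libraries, at 129% to 147%, lie above the line.

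The same difference was computed for other pairs of pseudogene and parent, as a description: ROCK1P1 was selected on its rise in these contrasts, so its place among unselected pairs supports nothing. By symbol, 1454 tested pseudogenes could be matched to a tested protein-coding parent. The fold change of ROCK1P1 minus that of ROCK1 was 1.96 on the log2 scale in HCC1806, rank 27 of 1454, where the median pair had 0.29 and the 5th to 95th percentile ran from -0.67 to 1.32. In MDA-MB-468 it was 2.61, rank 19, beside a median of 0.05 and a range of -1.43 to 1.32. In MDA-MB-468 no pair ranked higher had a called pseudogene. Pseudogenes of such pairs called higher in HCC1806 were ROCK1P1, A2MP1, RPLP0P2 and TNRC18P1, named here after their values were seen, and 4 were called lower. In MDA-MB-468, 1 was called higher, ROCK1P1, as its selection fixes, and 0 lower. The others had log2 fold changes of 4.77 (A2MP1), 2.13 (RPLP0P2) and 6.57 (TNRC18P1) in HCC1806 and 0.83, -0.35 and 0.36 in MDA-MB-468. Over all pseudogene types, 11 of 3456 were called higher and 5 lower in HCC1806, and 1 higher and 0 lower in MDA-MB-468. Those called higher made up 0.318% and 0.0289% of pseudogenes in the 2 lines, against 1.16% and 0.17% of all genes tested. The median log2 fold changes of pseudogenes were 0.12 and 0.00, beside 0.01 and -0.01 over all genes tested. Count level, which bears on what can be called, was not matched, so these shares do not compare how strongly the classes changed.

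AC107959.3 (ENSG00000253616), an antisense gene of 881 exon bases, rose with ROCK1P1 in both lines. It lies on chromosome 8 at 23071377 to 23074488 on the minus strand, within an intron of the antisense gene AC107959.2, which runs on the plus strand, and 2198 bases upstream of TNFRSF10B on the same strand as TNFRSF10B. Its transcript shared no stretch of 50 bases with another gene's transcript. HCC1806 controls held 17, 7 and 19 counts and depleted libraries 117, 66 and 115, or 0.609 ± 0.260 and 4.14 ± 1.46 CPM (SD, n = 3). The log2 fold change was 2.75 (SE 0.37), a ratio of means of 6.80. MDA-MB-468 controls held 5, 5 and 4 counts and depleted libraries 62, 67 and 51, or 0.130 ± 0.0272 and 1.78 ± 0.224 CPM, a log2 fold change of 3.74 (SE 0.44). The lowest depleted library was above the highest control in both lines. The fitted change was larger in MDA-MB-468 by 1.00 (SE 0.58), or 0.77 to 1.31 with single libraries left out. This difference rests on 14 control counts in all in MDA-MB-468. The level of AC107959.3 was lower in MDA-MB-468 in controls and after depletion alike, the reverse of ROCK1P1.

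TNFRSF10B, next to AC107959.3, encodes death receptor 5, a receptor of the apoptosis-inducing ligand TRAIL. In HCC1806 it was 74.5, 65.6 and 60.5 CPM in controls and 92.2, 90.5 and 82.0 after depletion, a log2 fold change of 0.40 (SE 0.10, edgeR adjusted p = 0.0508). In MDA-MB-468 it was 43.0, 42.5 and 38.6 CPM in controls and 55.9, 51.5 and 57.8 after depletion, 0.41 (SE 0.10, edgeR adjusted p = 0.223). The depleted libraries were above all controls in both lines, but neither change passed the test. With the replicate number as a block the edgeR adjusted p was 0.0292 for HCC1806 and 0.141 for MDA-MB-468, and with each line fitted alone it was 0.213 and 0.00131. With single libraries removed it passed in 3 of 12 fits for HCC1806 and in 0 of 12 for MDA-MB-468. AC107959.2, on the opposite strand, had log2 fold changes of 1.08 (SE 0.57) and 1.98 (SE 0.71), with edgeR adjusted p-values of 0.415 and 0.691. The annotated exons of AC107959.3 and AC107959.2 do not overlap. The receptors next in line, TNFRSF10C and TNFRSF10D, had log2 fold changes of 1.10 and -0.01 in HCC1806 and -0.15 and -0.07 in MDA-MB-468. None of the 12 tested genes around AC107959.3 was called in either line.

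**Figure D4:**
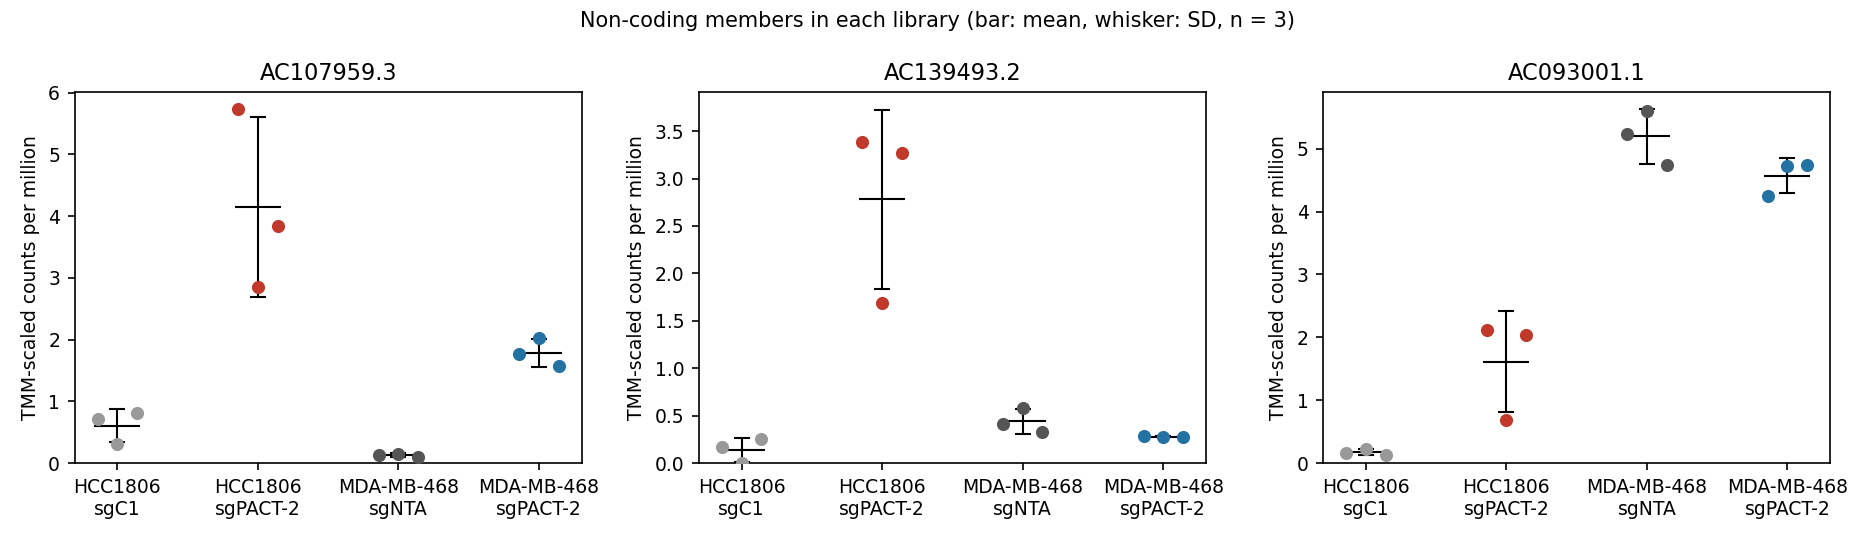
AC107959.3, AC139493.2 and AC093001.1 in TMM-scaled CPM, with a point for each library, with the mean and SD of each group (n = 3). AC107959.3 is higher after depletion in both lines; AC139493.2 and AC093001.1 are higher after depletion in HCC1806 and slightly below the controls in MDA-MB-468.

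AC139493.2 (ENSG00000283235) was higher after depletion in HCC1806 alone. GENCODE 29 types it as a processed transcript and not as antisense; it lies on chromosome 5 at 176173345 to 176199295 on the minus strand. HCC1806 controls held 4, 0 and 6 counts, and depleted libraries 69, 39 and 98, or 0.140 ± 0.129 and 2.78 ± 0.946 CPM (SD, n = 3). The log2 fold change was 4.25 (SE 0.59), a ratio of means of 19.8 that rests on 10 control counts in all. In MDA-MB-468 the controls held 15, 19 and 13 counts and the depleted libraries 10, 9 and 9, or 0.440 ± 0.128 and 0.278 ± 0.00718 CPM, a log2 fold change of -0.65 (SE 0.54). Every depleted library was thus above the controls in HCC1806 and below them in MDA-MB-468, the latter an order shown by 6.94% of genes, and the effects differed by -4.90 (SE 0.81, MDA-MB-468 minus HCC1806).

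Part of the sequence of AC139493.2 is not its own. It shares 813 of 2436 exon bases, 33.4%, with AC139491.2 on the same strand, and 39.1% of its 50-base stretches occur in transcripts of AC139491.2, AC106795.3 or LINC02222. AC139491.2 held 1, 0 and 0 counts in HCC1806 controls and 5, 9 and 12 after depletion, the same direction at a level too low to be tested. In MDA-MB-468 it held 8, 0 and 0 counts in controls and 2, 8 and 10 after depletion. AC106795.3 had 0 to 2 counts in every HCC1806 library, and LINC02222 had 0 in all 12. In MDA-MB-468, AC106795.3 held 28, 20 and 13 counts in controls and 11, 24 and 8 after depletion, groups that overlapped. AC139493.1, a processed pseudogene 4019 bases from AC139493.2 on the same strand, held 1, 0 and 0 counts in HCC1806 controls and 10, 8 and 7 after depletion, named here after its values were seen. The start of the AC139493.2 transcript is printed because it joins exon 1, in capitals, to exon 2.
AC139493.2 exon 1 to exon 2: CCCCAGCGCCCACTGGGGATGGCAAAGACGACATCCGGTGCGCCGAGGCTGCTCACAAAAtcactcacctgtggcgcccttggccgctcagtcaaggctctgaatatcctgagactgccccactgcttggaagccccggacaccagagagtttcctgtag

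The nearest tested gene, SIMC1, whose product binds SUMO, had log2 fold changes of -0.14 and 0.00 in HCC1806 and MDA-MB-468 and was not called. HIGD2A, which encodes a mitochondrial protein and starts 189452 bases away, fell by 0.51 in HCC1806 (SE 0.13, edgeR adjusted p = 0.0444). It is named here after its values were seen. With HCC1806 fitted alone its edgeR adjusted p was 0.234, the call held in 3 of 12 fits with a library removed, and in MDA-MB-468 its log2 fold change was -0.17, with an edgeR adjusted p of 1.

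AC093001.1 (ENSG00000244468) showed the same split between lines, from a control level that was likewise higher in MDA-MB-468. It is an antisense gene of 551 exon bases on chromosome 3, at 149284782 to 149333653 on the plus strand, and overlaps CPHL1P and TM4SF18 on the minus strand. HCC1806 controls held 4, 5 and 3 counts and depleted libraries 43, 16 and 61, or 0.173 ± 0.0486 and 1.61 ± 0.797 CPM (SD, n = 3), a log2 fold change of 3.20 (SE 0.45). MDA-MB-468 controls held 188, 184 and 190 counts and depleted libraries 149, 157 and 154, or 5.19 ± 0.429 and 4.57 ± 0.279 CPM, a log2 fold change of -0.18 (SE 0.28). The MDA-MB-468 control mean was 30.1 times the HCC1806 control mean and above every depleted HCC1806 library. In MDA-MB-468 the lowest control and the highest depleted library were both 4.74 CPM after rounding, so the order of the groups there is barely kept. The effects differed by -3.39 (SE 0.53, MDA-MB-468 minus HCC1806).

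The genes on the opposite strand of AC093001.1 were not called in either line. CPHL1P, a unitary pseudogene, had log2 fold changes of -0.77 (SE 0.48) and -0.00 (SE 0.16), and TM4SF18, a tetraspanin-like membrane protein gene, 0.52 (SE 0.97) and -0.08 (SE 0.58), with edgeR adjusted p-values from 0.561 to 1. Of the exon bases of AC093001.1, 141 (25.6%) overlap exons on the opposite strand, and without a stated strand setting reads from these bases could be counted to either gene. CPHL1P and TM4SF18 were, like AC093001.1, higher in MDA-MB-468 controls than in HCC1806 controls, by 6.14 and 3.34 on the log2 scale (SE 0.26 and 0.78, edgeR adjusted p = 8.2e-13 and 9.9e-04). TM4SF1, a further gene of the same family 35369 bases away, fell by 0.60 in HCC1806 (SE 0.15, edgeR adjusted p = 0.0367), the direction opposite to AC093001.1, and was -0.00 in MDA-MB-468. With HCC1806 fitted alone its edgeR adjusted p was 0.235. In the model of both lines, the call held in 2 of 12 fits with a library removed.

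Exon 1 of AC093001.1, 401 of its 551 bases, is a repeated sequence. Transcripts of 79 other genes matched it in the same direction over at least 200 bases at 80% identity or more, and in 9 of these genes, 8 of them non-coding, the match began in the first 50 bases of both transcripts. Of the 50-base stretches of AC093001.1, 25.9% occurred without a mismatch in another gene's transcript.

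Of 44 tested genes that share this exon, 1 (2.27%) was called higher and 0 lower in HCC1806, beside 1.16% and 1.32% of all genes. In MDA-MB-468 0 were called, beside 0.17% of all genes called higher. With 1 called gene, nothing is read from these shares. The median log2 fold changes of the 44 genes were 0.13 and 0.00 in the 2 lines, beside 0.01 and -0.01 over all genes tested. The called gene was LINC01467, named after its values were seen: 0, 0 and 1 counts in HCC1806 controls and 24, 21 and 39 after depletion (edgeR adjusted p = 0.0154). Set against 3 counts per control library, its mean of 1.13 CPM was at least 8.77-fold higher. In MDA-MB-468 it held 10, 1 and 0 counts in controls and 0, 2 and 1 after depletion.

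Of 2911 tested genes of the antisense type, 14 (0.481%) were called higher and 0 lower in HCC1806, beside 1.16% and 1.32% of all genes. In MDA-MB-468, 1 (0.0344%) was called higher and 0 lower, beside 0.17% and 0% of all genes. Of 791 genes with an antisense symbol ending in AS and a number, 5 were called higher and 0 lower in HCC1806 and 0 in MDA-MB-468 by edgeR. The antisense type had median log2 fold changes of 0.07 and -0.01 in the 2 lines, and its count level was not matched to that of all genes. The 1 antisense gene called higher in both lines is AC107959.3, as the selection of the members fixes.

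Depleted replicate 2 of HCC1806 was the lowest of the 3 depleted libraries for all 4 rising genes: 2.77 CPM for ROCK1P1, 2.86 for AC107959.3, 1.69 for AC139493.2 and 0.693 for AC093001.1. ROCK1 was also lowest there, at 49.5 CPM. PRKRA was 36.1 CPM in that library, against 37.3 and 37.5 in the other depleted libraries. In each case the library still lay above all 3 controls for the 4 rising genes.

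**Figure D5:**
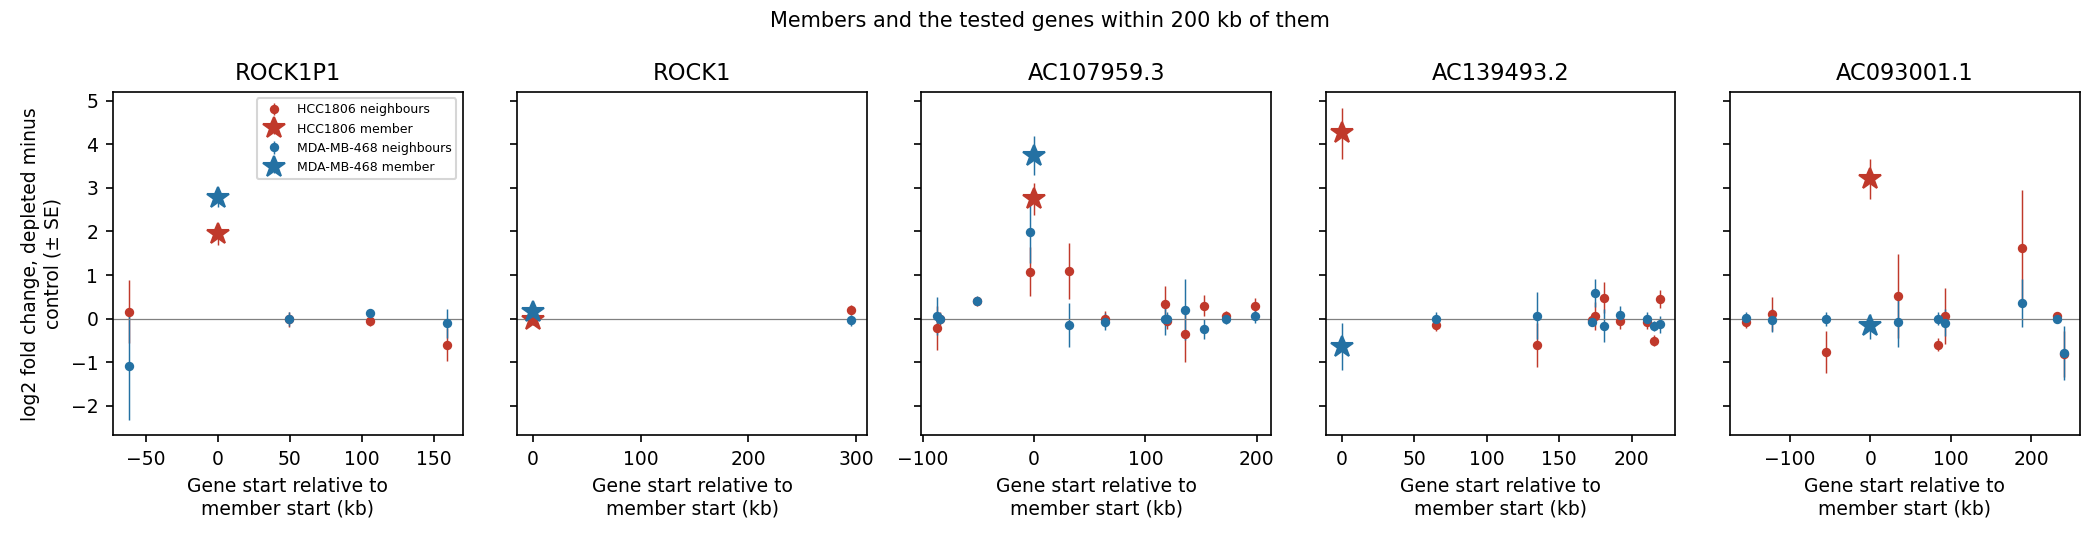
Log2 fold changes (± SE) of the 5 genes (stars) and of the tested genes within 200 kb of each (dots), in HCC1806 (red) and MDA-MB-468 (blue). The horizontal axis is the distance in kilobases between the lowest coordinates of the genes, which for genes on the minus strand are their 3′ ends. In HCC1806 the 4 rising genes lie above their neighbours, and in MDA-MB-468 only ROCK1P1 and AC107959.3 do. The 4 genes were selected on these fold changes, so nothing is read from their place above unselected neighbours. Of 35 neighbours, 2 were called, both lower in HCC1806.

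Around the 5 genes, 75 other genes overlapped a member or had their lowest coordinate within 200 kb of it, and 35 were tested. In HCC1806, 0 were called higher and 2 lower, HIGD2A and TM4SF1, where 1.16% and 1.32% of all genes were; in MDA-MB-468 0 were called, where 0.17% were called higher and 0 genes lower by edgeR. At an unadjusted p under 0.05, 550 genes were lower in MDA-MB-468. Next to ROCK1P1, the proteasome-associated deubiquitinase gene USP14 had log2 fold changes of -0.02 and -0.01, and THOC1, of the mRNA export complex THO, had -0.05 and 0.12. TUBB8P12 on the other side had 0.16 (SE 0.73) and -1.09 (SE 1.23). MIR8078, which lies within an intron of ROCK1P1 on the opposite strand, had 1 to 7 counts in every library. GREB1L, the 1 tested neighbour of ROCK1, had 0.20 and -0.04, and neither passed the test.

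The pathway of the parent gene was followed through a list of 32 genes. These genes act upstream of ROCK1, with it or below it, and all were tested. In HCC1806, 1 was called higher and 3 lower, where 1.16% and 1.32% of all genes were. Both shares were above those of all genes but rest on 1 and 3 genes. The list was chosen with earlier results of these data known, so nothing is read from the shares. By edgeR, 11 of the 32 had an unadjusted p under 0.05 in HCC1806, beside 3909 of the 27029 genes tested. In MDA-MB-468, 0 were called and 3 had an unadjusted p under 0.05 by edgeR, beside 46 called and 1424 of the genes tested. The median log2 fold change was -0.01 in HCC1806, with a range from -0.61 to 0.66, and 0.01 in MDA-MB-468. ROCK2, the sister kinase, had -0.00 in both lines. Among activators and their regulators, RHOA fell by 0.41 in HCC1806, from 65.6 ± 6.84 to 49.4 ± 2.49 CPM (SD, n = 3, edgeR adjusted p = 0.0349). DLC1, which encodes a GTPase-activating protein that switches RHOA off, rose by 0.66, from 23.6 ± 1.57 to 37.3 ± 5.54 CPM (edgeR adjusted p = 0.0317). DLC1 had 0 counts in every MDA-MB-468 library, so no change could be measured for it there or between the lines. Of the 16 targets and actomyosin genes, EZR and MSN, which encode ezrin and moesin, linkers of actin to the plasma membrane, fell by 0.38 and 0.61 in HCC1806 (edgeR adjusted p = 0.0365 and 0.0297). These calls depended on single libraries: without HCC1806 control replicate 1 or 2, 0 genes of the list were called, without depleted replicate 2 there was 1 and without depleted replicate 1 there were 7. Of 12 fits that each left out 1 library, the call held in 4 for RHOA, 8 for DLC1, 3 for EZR and 7 for MSN. With HCC1806 fitted alone, 0 of the 32 genes were called, with edgeR adjusted p-values of 0.0908 for DLC1 and 0.216 to 0.237 for RHOA, EZR and MSN. The myosin light chain genes MYL9, MYL12A and MYL12B, the phosphatase subunit PPP1R12A, LIMK1 and LIMK2, and the transcription factor SRF with its coactivators were not called in either line. For a difference of effects between the lines, 0 genes of the list were called, beside 0.122% of all genes, and 4 had an unadjusted p under 0.05 for it by edgeR.

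Other genes with patterns like those of the 5 were ranked by Pearson's r of log2 CPM over the 12 libraries, taken among genes averaging 50 counts or more. The libraries fall into 4 groups, so r mostly reflects group means and is given as a description. For ROCK1P1 the highest were PRDM1 (r = 0.973), a transcriptional repressor, RASSF9 (0.963) and ZNF554 (0.954). PRDM1 was 2.67 and 4.15 CPM in control and depleted HCC1806 and 4.94 and 11.6 in MDA-MB-468. For ROCK1 they were UBR3 (0.988), PDE4B (0.986) and EIF5B (0.985), and for AC107959.3 NEDD4L (0.956), KIFC3 (0.956) and MB21D2 (0.934). For AC139493.2 they were the transcription factor gene KLF2 (0.964), NRAV (0.901) and AL592114.3 (0.893). KLF2 was 3.56 and 8.38 CPM in control and depleted HCC1806 and 4.84 and 4.86 in MDA-MB-468. For AC093001.1 they were TRIM36 (0.992), SLC43A2 (0.983) and TMEM217 (0.978); TRIM36 was 1.38 and 3.59 CPM in HCC1806 and 6.65 and 6.58 in MDA-MB-468.

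Short motifs were searched on both strands in the first 389 bases of each transcript, the length of exon 1 of ROCK1P1-203. They were TGACGTCA, TGATGCAA, TGATGCAAT, TGANTCA, GGANTTNCC and TATAAA, of which TGATGCAAT contains TGATGCAA. ROCK1P1 held TGATGCAA, a core of elements bound by ATF4, 2 times, the first at base 116, and 1.05% of all 185124 transcripts at least that long hold it in this window. The exon has internal repeats, and the second copy can be read in the junction printed above. None of the other motifs was in these bases of any of the 5 transcripts. The ROCK1 promoter of RefSeq (GRCh38.p14) around its start held none of the 6, and it was the 1 promoter of the 5 genes in the table used here. A match describes letters and not a bound site.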

How the data were processed

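The authors deposited whole-number read counts for each Ensembl gene and library, not normalized. Per the submitters' processing notes, the build was GRCh38 and the tools Trimmomatic 0.36, STAR 2.5.2b and featureCounts of Subread 1.5.2; their settings, the annotation release and the strand setting are not given in the sources used here. Gene types and coordinates came from GENCODE 29 (GRCh38), which held 56898 of the 57500 IDs, and transcript sequences from the same release. No library was left out, and 44375 genes had a count.

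One edgeR 4.0.16 quasi-likelihood model (R 4.3.3, limma 3.58.1, TMM, filterByExpr, two-sided) took in all 12 libraries, with a coefficient for each group. Benjamini-Hochberg adjustment ran over the 27029 genes tested, and a gene was called at an adjusted p under 0.05. The SE of an edgeR fold change was its absolute log2 value divided by the square root of the F statistic, so it is not separate from the test. The biological coefficient of variation was 0.171. Alternatives included DESeq2 1.42.0. The fit was tested on simulated data. Transcripts were aligned with blastn. Python 3.11.15 computed the ratios and matplotlib 3.10.9 drew the figures.

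Deviations from the group means were correlated across genes between control and depleted libraries. In HCC1806, r was 0.479, 0.294 and 0.152 for the same number and -0.462 to 0.351 for other numbers, so the ranges overlapped. In MDA-MB-468, r was smaller, 0.116, 0.075 and 0.106 for the same number, but lay above the -0.109 to 0.004 for other numbers. The members and gene lists were chosen with earlier results of these data known. Besides the 5 members and PRKRA, genes were named from those overlapping a member, the 2 nearest tested genes on each side, and ROCK2. Further sets were up to 3 called genes of the ROCK pathway list in each direction and line, and the 3 genes with the highest correlation to each member. Not every gene of these sets is named. Cell type markers, genes of the pathway list that were not called and genes sharing sequence with a member are also named, and others are marked. Levels are bulk RNA, in which fewer cells of a type and less RNA per cell cannot be told apart.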

Additional observations from a re-analysis of the deposited data

Results flagged for a closer look

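AC139493.2 was higher in all 3 depleted libraries than in all controls of HCC1806 and lower in all 3 than in all controls of MDA-MB-468. The effect in MDA-MB-468 minus that in HCC1806 was -4.90 on the log2 scale. AC093001.1 had the same opposite order of libraries, with a difference of -3.39, and its MDA-MB-468 groups nearly touched at 4.74 CPM. The difference was not tested for either gene, since both were chosen on these contrasts.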

How the results depend on the processing

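The 12 fold changes of the 4 rising genes (3 contrasts each) kept their direction, within the spread of the libraries, in all 218 alternative values. A minimum mean of 50 counts removed AC107959.3 and AC139493.2. Leaving out a library of the other line barely moves a change within a line, and the genes were selected on these same libraries. The count of 218 is therefore a description and no support for the rises. Leaving out 1 library at a time gave ROCK1P1 values of 1.68 to 2.26 (HCC1806) and 2.69 to 2.80 (MDA-MB-468). ROCK1 in HCC1806, at -0.03, turned to 0.10 (adjusted p = 0.716) with library size only and to 0.001 (adjusted p = 1) with the minimum of 50, and ran from -0.10 to 0.075 (the latter without depleted replicate 2) without single libraries; it was not called in any of these. With the replicate number as a block ROCK1 was -0.03 (adjusted p = 0.939) there. Counts of called genes moved most. In HCC1806, 672 became 1245 with DESeq2, 1351 without a filter and 74 with each line fitted alone, and 301 (without control replicate 1) to 1792 (without depleted replicate 1) when single libraries were left out. In MDA-MB-468, 46 became 113, 143 and 323 under these 3 settings and 19 (without its depleted replicate 3) to 98 (without HCC1806 depleted replicate 1). For the difference of effects, 33 became 178 with DESeq2, 275 without a filter, 53 with the replicate block and 9 to 168 without single libraries. For the controls of the lines, 20068 became 13022 with the minimum of 50. ROCK pathway genes called in HCC1806 went from 4 to 0 with the line fitted alone and from 0 to 7 without single libraries; in MDA-MB-468 from 0 to 1 with the line alone. With the block 949 genes were called in HCC1806 and 59 in MDA-MB-468 and 6 pathway genes in HCC1806; PRKRA, TM4SF1, HIGD2A, RHOA, EZR, MSN and DLC1 were still called there, and TNFRSF10B was added. The coefficient of variation was 0.204 for HCC1806 alone and 0.0936 for MDA-MB-468 alone. The causes were not tested. Difference and baseline have no value with each line alone. AC139493.2 and AC093001.1 rest on 10 and 12 control counts in HCC1806, and AC107959.3 on 14 in MDA-MB-468.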
